A study of Mus musculus with 18 samples.

Results

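A set of 10 genes of steroid metabolism and glucocorticoid signalling was followed in the murine pancreatic alpha cell line alphaTC1 after knockdown of Smndc1, a splicing factor. They are 10 of the 55487 genes in the deposited count tables and were chosen by symbol: the aldo-keto reductases Akr1c14, Akr1c13 and Akr1c12, the steroid dehydrogenase Hsd11b1, the carbonyl reductase Dhrs4, the reductases Srd5a1 and Srd5a3, the glucocorticoid receptor Nr3c1, and the receptor-responsive genes Tsc22d3 and Fkbp5. The choice used measured values: Akr1c14, Hsd11b1 and Dhrs4 were taken because they were lower in knockdown cells. For these 3 genes, values in knockdown cells against their controls are therefore a description with no test. The other 7 genes were tested, within a set assembled with results of these data known.

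The 18 libraries come from 2 experiments, and all groups carry a transduced vector. In experiment 1, shSmndc1 cells received an shRNA against Smndc1 and EV cells an empty vector (3 libraries each), 5 days before they were taken. In experiment 2, RIP-mCherry, in which a rat insulin promoter drives a red fluorescent protein, was added to all cells. Knockdown cells were sorted into shSmndc1_RIP_pos (reporter signal, here the positive fraction) and shSmndc1_RIP_neg (no reporter signal, here the negative fraction), and EV_RIP cells carried the empty vector and the reporter (4 libraries each). The labels give no sort for EV_RIP and no day for experiment 2, so sorting and knockdown cannot be told apart there. All values come from 1 tumour-derived cell line and 1 shRNA, and nothing in the labels says that replicates were separate cultures, so the spread behind the p-values is that between libraries and may be technical.

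Glucocorticoids act through the receptor Nr3c1, which waits in the cytoplasm with heat shock proteins and immunophilins and enters the nucleus on binding hormone. Enzymes set how much active hormone a cell sees: Hsd11b1 turns inactive keto-steroids into active glucocorticoid in the endoplasmic reticulum, while steroid reductases and hydroxysteroid dehydrogenases such as Srd5a1 and Akr1c14 inactivate or reshape steroids. In islets, Hsd11b1 is known for local activation of glucocorticoid in endocrine cells, including alpha cells.

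Upstream sequences of the 3 genes chosen for low values in knockdown cells are printed as the 250 bases before the RefSeq start (build GRCm38.p6), 5′ to 3′ on the gene's strand, with each CCAAT box (CCAAT, or ATTGG on the other strand) in capitals. The RefSeq starts of Akr1c14 and Hsd11b1 lie inside the gene spans of the deposited table, which begin farther upstream.
Akr1c14 (chr13:4059341-4059590, plus strand): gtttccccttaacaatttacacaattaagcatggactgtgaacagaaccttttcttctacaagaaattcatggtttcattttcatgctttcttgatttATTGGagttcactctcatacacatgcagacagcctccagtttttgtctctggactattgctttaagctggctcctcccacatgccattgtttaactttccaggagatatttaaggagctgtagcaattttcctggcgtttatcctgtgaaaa
Hsd11b1 (chr1:193242361-193242610, minus strand): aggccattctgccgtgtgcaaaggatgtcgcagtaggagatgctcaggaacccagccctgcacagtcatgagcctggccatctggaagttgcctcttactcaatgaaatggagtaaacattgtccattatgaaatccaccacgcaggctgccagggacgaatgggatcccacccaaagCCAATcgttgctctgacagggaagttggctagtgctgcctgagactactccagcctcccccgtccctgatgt
Dhrs4 (chr14:55478508-55478757, plus strand): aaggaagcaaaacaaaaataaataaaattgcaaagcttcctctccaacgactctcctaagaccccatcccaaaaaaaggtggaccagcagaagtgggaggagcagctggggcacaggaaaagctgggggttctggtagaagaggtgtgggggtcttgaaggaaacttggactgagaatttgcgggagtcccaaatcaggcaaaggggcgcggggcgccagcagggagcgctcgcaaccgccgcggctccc
The box lies 152 to 148 bases before the start of Akr1c14 and 72 to 68 bases before that of Hsd11b1, and the Dhrs4 window holds no match to these letters. CCAAT or ATTGG occurs in 33.8% of all 32851 promoter windows of this length, so a match in these genes is a description. The windows differ in base composition, with 38.8% GC for Akr1c14, 54.4% for Hsd11b1 and 55.2% for Dhrs4, against a median of 52.4% over all windows.

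Akr1c13 and Akr1c12 are shown next because they are near copies of each other, which bears on how their reads were assigned. Capitals mark bases that differ between the aligned windows or stand unaligned.
Akr1c13 (chr13:4190937-4191186, plus strand): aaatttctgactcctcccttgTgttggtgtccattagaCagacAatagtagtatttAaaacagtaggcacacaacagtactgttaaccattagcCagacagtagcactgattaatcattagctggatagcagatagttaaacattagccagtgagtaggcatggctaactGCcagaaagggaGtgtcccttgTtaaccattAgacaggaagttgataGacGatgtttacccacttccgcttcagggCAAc
Akr1c12 (chr13:4279400-4279649, minus strand): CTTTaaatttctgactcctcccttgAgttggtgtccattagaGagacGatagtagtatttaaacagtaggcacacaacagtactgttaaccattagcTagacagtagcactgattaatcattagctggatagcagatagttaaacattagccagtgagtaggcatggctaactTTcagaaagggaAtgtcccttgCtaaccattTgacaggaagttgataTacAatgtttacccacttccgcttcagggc
Of 246 aligned bases 235 were identical (95.5%), with 4 bases unaligned in each window. Of all read-length windows (75 bases) of Akr1c12 transcripts, 17.3% also occur in Akr1c13, and 14.3% of those of Akr1c13 occur in Akr1c12. A read from these stretches cannot be assigned to one gene by its own sequence. The other read of its pair was not considered. As the Akr1c12 counts are few beside those of Akr1c13, all of the Akr1c12 counts are uncertain. Fragments of Akr1c14 and Srd5a1 are shared with predicted genes on the same strand: 7.22% of the exonic bases of Akr1c14 overlap Gm18857, and 16.4% of those of Srd5a1 overlap Gm17108. No exonic base of the 10 genes overlaps an exon of another gene on the opposite strand.

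Other letters were searched on both strands of the 9 genes with an upstream window (Nr3c1 is not in the table). The palindromic glucocorticoid response element (AGAACA, 3 bases of any kind, then TGTTCT) was in 0.00913% of all windows and in none of these genes, and a single arm of it (AGAACA or TGTTCT, also part of the full element) was in 16.1% of all windows and, here, in 1 of 3 windows of Tsc22d3. The core of the antioxidant response element (TGACNNNGC or GCNNNGTCA) was in 10.2% of all windows and in those of Hsd11b1 and Srd5a3. The GC box (GGGCGG or CCGCCC) was in 32.7% of all windows and in those of Srd5a1, Srd5a3, Fkbp5 and Tsc22d3, and a TATA box (TATAAA or TTTATA), in 12.4% of all windows, was in none of the 9 genes.

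Library totals lay between 8084574 and 103048766 counts, and both extremes are in experiment 2. Smndc1 itself had 10.4, 9.52 and 10.5 CPM (a counts-per-million level on TMM-scaled library sizes) in shSmndc1, against 41.9, 40.2 and 35.1 CPM in EV. It had 16.6, 22.4, 15.97 and 25.2 CPM in the positive fraction and 23.9, 43.4, 36.3 and 44.6 CPM in the negative fraction, against 37.6, 54.9, 39.3 and 46.3 CPM in EV_RIP. In the negative fraction Smndc1 did not pass edgeR's quasi-likelihood test, whose p-values are adjusted over all genes tested and called under 0.05 (log2 fold change -0.27, SE 0.20, edgeR adjusted p = 0.378), so a knockdown is not shown there. Negative replicates 2, 3 and 4 held 18.6, 161 and 45.4 CPM of the non-polyadenylated RNA Rn7sk, against 2.44 to 4.68 CPM in the positive fraction and 5.24 to 14.2 CPM in EV_RIP. The third shSmndc1 library stood apart in experiment 1, with 1083 CPM of Malat1, a nuclear RNA, against 174.5 to 477.7 CPM in the other 5. In experiment 2 Malat1 lay between 287.1 and 669.6 CPM in the positive and between 449.9 and 688.2 CPM in the negative fraction, against 108.8 to 285.6 CPM in EV_RIP, so that all libraries of both fractions exceeded all controls. EV_RIP replicate 1 held 0.587% of its counts in mitochondrial genes, where the other libraries of experiment 2 held 2.35% to 4.595%. The part of these RNAs in the results was not tested. Of 12 alpha cell markers 11 had counts in every group, among them glucagon (Gcg) at group means of 5114 to 15990 CPM, and Gc was at 0 in all groups.

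**Figure D1:**
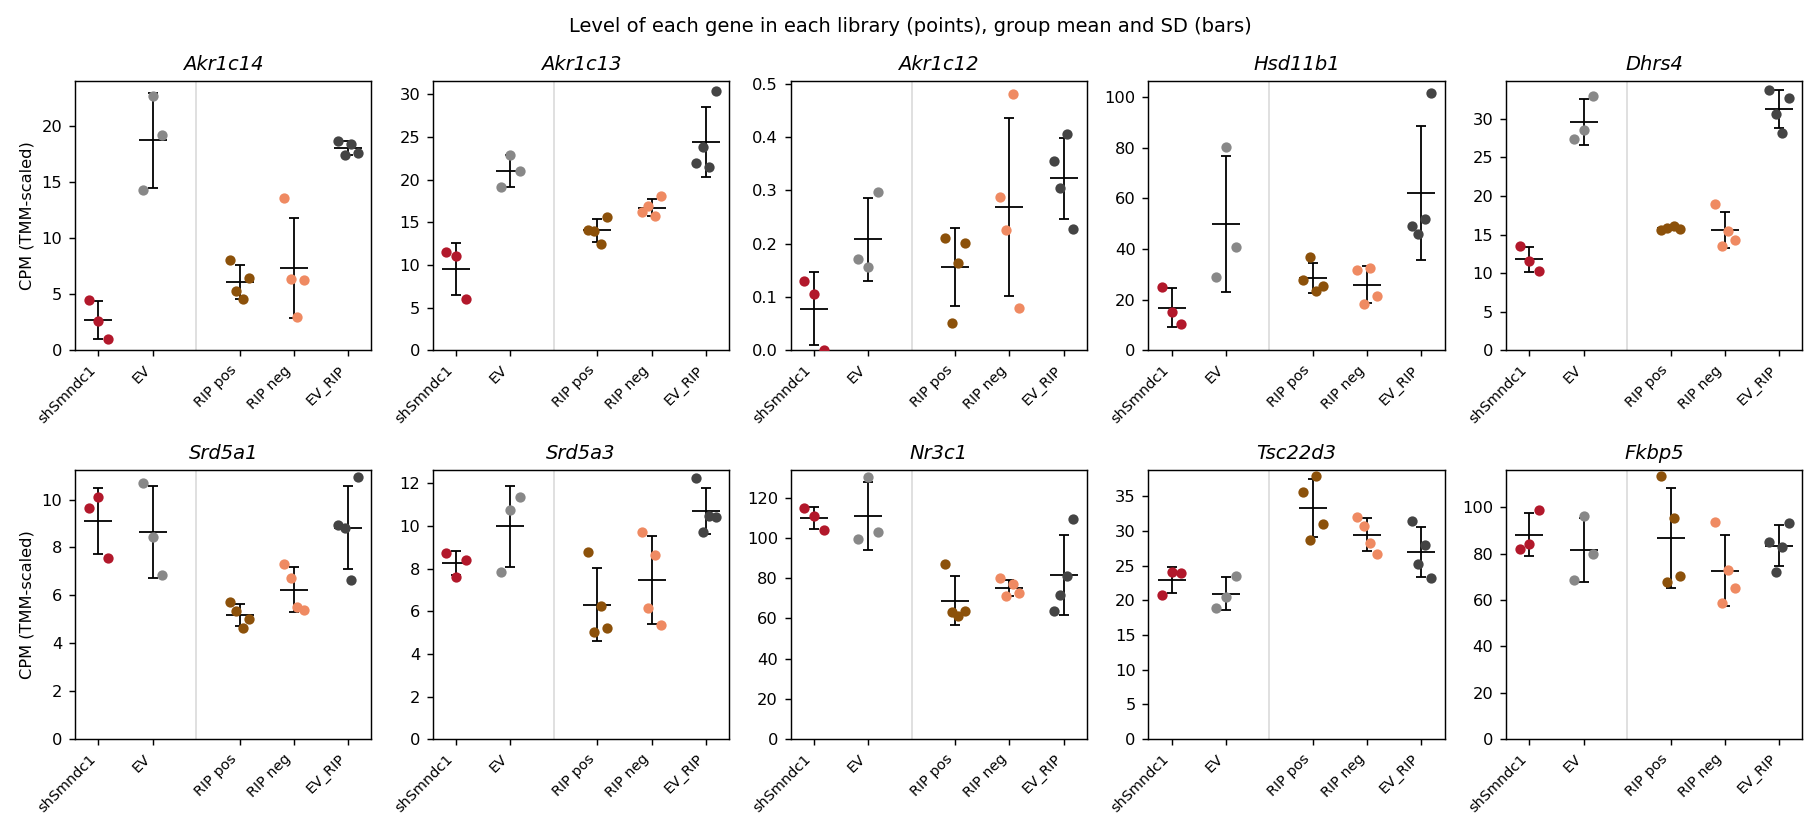
Level of each of the 10 genes (CPM on TMM-scaled library sizes, linear axis from 0) in the 3 libraries of shSmndc1 and EV and the 4 of the positive fraction (RIP pos), the negative fraction (RIP neg) and EV_RIP; points are libraries, bars the mean and SD. Akr1c13 lies lower in every library of cells given the shRNA than in every control library of the same experiment. So do Akr1c14, Hsd11b1 and Dhrs4, which were chosen for low values in knockdown cells. Nr3c1, Tsc22d3 and Fkbp5 overlap their controls. Of all tested genes, 19.8% in shSmndc1, 11.7% in the positive and 7.2% in the negative fraction lay below every control library.

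The aldo-keto reductases are described first. Akr1c14 (ENSMUSG00000033715, chromosome 13, 4049011 to 4090688, plus strand, GRCm38), a hydroxysteroid dehydrogenase that reduces dihydrosteroids, had 4.48, 2.63 and 1.07 CPM in shSmndc1, against 14.3, 22.7 and 19.2 CPM in EV. In experiment 2 it had 8.09, 5.34, 4.58 and 6.44 CPM in the positive fraction and 13.6, 6.42, 3.01 and 6.31 CPM in the negative fraction, against 18.7, 17.5, 18.5 and 17.7 CPM in EV_RIP. Every shSmndc1, positive and negative library lay below every control library of its experiment, and negative replicate 1 came closest to the controls. Spread differed between the groups of experiment 2, with 6.11 ± 1.52 CPM in the positive and 7.33 ± 4.46 CPM in the negative fraction, against 18.1 ± 0.615 CPM in EV_RIP (SD, n = 4 each). The log2 fold change was -2.77 (SE 0.42) in shSmndc1, -1.56 (SE 0.31) in the positive fraction and -1.26 (SE 0.31) in the negative fraction. The value of 3.01 CPM in negative replicate 3 rests on few reads, since that library has the lowest total, and without negative replicates 3 and 4 the log2 fold change of the negative fraction was -0.87 (SE 0.29). In bulk libraries, fewer cells expressing a gene and less of its RNA per cell cannot be told apart.

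Akr1c13 (ENSMUSG00000021213, chromosome 13, 4191150 to 4205596, plus strand), a neighbouring aldo-keto reductase, followed the same pattern with smaller differences. It had 11.5, 11.1 and 6.03 CPM in shSmndc1, against 19.2, 22.9 and 21.03 CPM in EV, lower by 1.14 on the log2 scale (SE 0.23, edgeR adjusted p = 0.0179). The positive fraction had 14.1, 14.04, 12.4 and 15.7 CPM and the negative fraction 16.2, 16.9, 15.8 and 18.1 CPM, against 21.9, 23.9, 21.4 and 30.4 CPM in EV_RIP. All libraries of cells given the shRNA were lower than all control libraries of their experiment, and all positive libraries were lower than all negative libraries by a narrow margin. Akr1c13 fell in the positive fraction by 0.79 on the log2 scale (SE 0.13, edgeR adjusted p = 0.00296) and in the negative fraction by 0.54 (SE 0.13, edgeR adjusted p = 0.021). The call in shSmndc1 was lost without EV replicate 2 (log2 fold change -1.08, edgeR adjusted p = 0.0687) or EV replicate 3 (-1.15, 0.0829). The call in the negative fraction was lost without negative replicate 2 (-0.54, edgeR adjusted p = 0.064), 3 (-0.52, 0.0531) or 4 (-0.59, 0.0647), and without replicates 3 and 4 together (-0.57, 0.211), while that in the positive fraction held without any 1 library (adjusted p between 0.00529 and 0.0138).

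Akr1c12 (ENSMUSG00000021211, chromosome 13, 4268176 to 4279433, minus strand), the near copy of Akr1c13, was close to the limit of detection. It held 13 counts over the 3 shSmndc1 libraries and 28 over the 3 EV libraries, too few to be tested, and shSmndc1 replicate 3 had 0 counts, which allows up to 0.0761 CPM. In experiment 2 it averaged 0.157 ± 0.0726 CPM in the positive fraction and 0.268 ± 0.166 CPM in the negative fraction, against 0.323 ± 0.0755 CPM in EV_RIP (SD, n = 4 each). Its log2 fold changes of -1.02 (SE 0.49, edgeR adjusted p = 0.154) in the positive and -0.43 (SE 0.49, edgeR adjusted p = 0.567) in the negative fraction did not pass. Counts of Akr1c13 stood at 116 times those of Akr1c12 in shSmndc1, against 102.7 times in EV, and at 88.3 times in the positive and 73.1 times in the negative fraction, against 74.7 times in EV_RIP.

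The 3 genes belong to a cluster of aldo-keto reductases on chromosome 13, in which most genes had almost no counts. Over each whole group, Akr1c18, Akr1c19, Akr1c6 and Akr1c20 had 0 or 1 count and Akr1c21 between 3 and 9 counts. Akr1e1, at the far end of the cluster some 542 kb from the start of Akr1c14, averaged 13.6 ± 0.867 CPM in shSmndc1, against 24.3 ± 4.50 CPM in EV (SD, n = 3 each), and it fell by 0.84 on the log2 scale (SE 0.16, edgeR adjusted p = 0.0157). It also fell in the positive fraction (14.8 ± 3.97 CPM, log2 fold change -0.97, edgeR adjusted p = 0.0183) and in the negative fraction (15.4 ± 5.45 CPM, -0.91, 0.0304), against 29.0 ± 6.96 CPM in EV_RIP (SD, n = 4 each). With 1 library left out, its call was lost in 3 of 6 fits in shSmndc1 (without EV replicate 2 or 3 or shSmndc1 replicate 2), in 3 of 8 in the positive fraction (without EV_RIP replicate 1 or positive replicate 2 or 4) and in 6 of 8 in the negative fraction (all but those without EV_RIP replicate 2 or negative replicate 1), where the highest adjusted p values by edgeR were 0.0833, 0.0652 and 0.113.

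**Figure D2:**
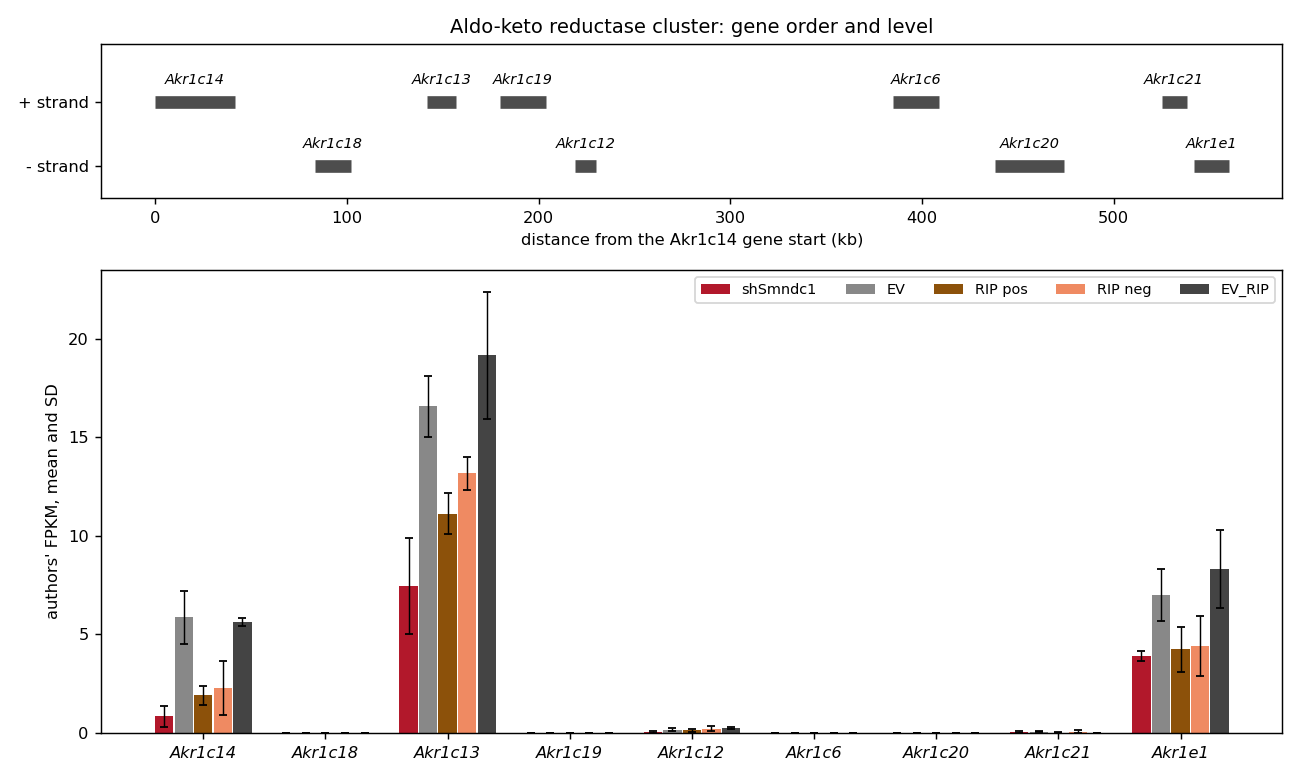
Upper panel: gene spans and strands of the aldo-keto reductase cluster, as distance from the start of Akr1c14 in kb. Lower panel: the authors' FPKM of each gene (mean, SD over 3 or 4 libraries per group, axis from 0), where Akr1c14, Akr1c13 and Akr1e1 carry nearly all of the signal and are lower in each group given the shRNA than in its control.

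Hsd11b1 (ENSMUSG00000016194, chromosome 1, 193221634 to 193264075, minus strand), the glucocorticoid-activating enzyme, had 25.2, 15.2 and 10.4 CPM in shSmndc1, against 28.8, 80.1 and 40.8 CPM in EV. It had 27.8, 37.0, 23.6 and 25.6 CPM in the positive fraction and 31.6, 18.1, 32.7 and 21.6 CPM in the negative fraction, against 49.0, 46.0, 51.8 and 101.6 CPM in EV_RIP. Libraries of cells given the shRNA did not overlap control libraries in either experiment, but the controls varied most: EV replicate 2 and EV_RIP replicate 4 were far above the other controls. The log2 fold change was -1.56 (SE 0.40) in shSmndc1, -1.12 (SE 0.26) in the positive and -1.27 (SE 0.26) in the negative fraction. It was -1.04 in shSmndc1 without EV replicate 2, and -0.77 in the positive and -0.93 in the negative fraction without EV_RIP replicate 4. H6pd, the enzyme that supplies reducing power to Hsd11b1, had log2 fold changes of 0.05, -0.22 and -0.41 in shSmndc1, the positive and the negative fraction, none of which passed (edgeR adjusted p = 0.892, 0.536 and 0.234).

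Dhrs4 (ENSMUSG00000022210, chromosome 14, 55478758 to 55490340, plus strand), a peroxisomal reductase of retinal and other carbonyls, was the most even of the 3 chosen genes. It had 13.5, 11.6 and 10.3 CPM in shSmndc1, against 27.3, 28.5 and 32.9 CPM in EV. The positive fraction had 15.6, 15.8, 16.1 and 15.8 CPM and the negative fraction 18.9, 13.6, 15.5 and 14.3 CPM, against 33.7, 30.5, 28.1 and 32.7 CPM in EV_RIP. Libraries of cells given the shRNA lay well below all controls of their experiment, and the positive libraries differed from each other by less than 1 CPM. The log2 fold change was -1.33 (SE 0.15) in shSmndc1, -0.98 (SE 0.12) in the positive and -1.005 (SE 0.12) in the negative fraction.

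The steroid reductases showed no called change in experiment 1. Srd5a1 (ENSMUSG00000021594, chromosome 13, 69573449 to 69611442, minus strand), which reduces steroids such as testosterone and corticosterone, had 9.66, 10.1 and 7.56 CPM in shSmndc1, against 10.7, 8.42 and 6.84 CPM in EV (log2 fold change 0.08, SE 0.21, edgeR adjusted p = 0.825). In the positive fraction it had 5.71, 5.36, 4.66 and 5.03 CPM and in the negative fraction 7.33, 6.73, 5.53 and 5.40 CPM, against 8.94, 8.80, 6.66 and 10.9 CPM in EV_RIP. Positive libraries lay below all EV_RIP libraries, while negative libraries overlapped them. Srd5a1 fell in the positive fraction (log2 fold change -0.77, SE 0.18, edgeR adjusted p = 0.0125), also without any 1 library (adjusted p between 0.0121 and 0.0367), and did not pass in the negative fraction (-0.49, SE 0.18, 0.0762).

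Srd5a3 (ENSMUSG00000029233, chromosome 5, 76140271 to 76155504, plus strand) is named as a steroid reductase but is known for reducing polyprenol to dolichol, the lipid carrier of N-glycans. It had 8.75, 7.63 and 8.42 CPM in shSmndc1, against 7.84, 10.8 and 11.4 CPM in EV (log2 fold change -0.27, SE 0.18, edgeR adjusted p = 0.329). The positive fraction had 8.78, 5.05, 6.24 and 5.20 CPM and the negative fraction 9.71, 6.17, 8.66 and 5.36 CPM, against 12.3, 9.72, 10.5 and 10.4 CPM in EV_RIP. Both sorted groups lay below all EV_RIP libraries, by a narrow margin in negative replicate 1. Srd5a3 fell in the positive fraction (log2 fold change -0.76, SE 0.22, edgeR adjusted p = 0.0297), a call that was lost without EV_RIP replicate 1 (-0.67, 0.0862), EV_RIP replicate 3 (-0.76, 0.0611), positive replicate 2 (-0.66, 0.0965), 3 (-0.76, 0.0626) or 4 (-0.68, 0.0803). In the negative fraction it did not pass (-0.53, SE 0.22, edgeR adjusted p = 0.109). Without negative replicate 1, both Srd5a1 (-0.58, edgeR adjusted p = 0.0351) and Srd5a3 (-0.70, 0.0303) passed in the negative fraction.

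The receptor and its responsive genes showed no called change. Nr3c1 (ENSMUSG00000024431, chromosome 18) had 114.9, 111.1 and 104.1 CPM in shSmndc1, against 99.6, 130.2 and 102.7 CPM in EV (log2 fold change -0.01, SE 0.13, edgeR adjusted p = 0.964). The positive fraction had 87.0, 63.3, 61.1 and 63.5 CPM and the negative fraction 80.0, 71.1, 76.9 and 72.6 CPM, against 63.9, 71.8, 81.1 and 109.5 CPM in EV_RIP. Groups overlapped, and positive replicate 1 stood above the other positive libraries. The log2 fold changes were -0.25 (SE 0.16, edgeR adjusted p = 0.283) in the positive and -0.12 (SE 0.16, 0.63) in the negative fraction.

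Tsc22d3 (ENSMUSG00000031431, chromosome X, 140539528 to 140600659, minus strand) encodes the glucocorticoid-induced leucine zipper protein. It had 20.8, 24.1 and 23.9 CPM in shSmndc1, against 18.9, 20.5 and 23.5 CPM in EV (log2 fold change 0.13, SE 0.14, edgeR adjusted p = 0.541). The positive fraction had 35.6, 28.7, 37.8 and 31.0 CPM and the negative fraction 32.0, 30.7, 28.3 and 26.7 CPM, against 31.4, 25.3, 27.9 and 23.2 CPM in EV_RIP. All groups overlapped, and log2 fold changes of 0.31 (SE 0.13, edgeR adjusted p = 0.105) in the positive and 0.13 (SE 0.13, 0.50) in the negative fraction did not pass.

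Fkbp5 (ENSMUSG00000024222, chromosome 17, 28399094 to 28517527, minus strand), a co-chaperone that lowers the receptor's affinity for hormone and is itself induced by it, had 81.7, 84.3 and 98.6 CPM in shSmndc1, against 68.7, 96.0 and 79.8 CPM in EV (log2 fold change 0.11, SE 0.15, edgeR adjusted p = 0.63). The positive fraction had 113.3, 67.8, 95.3 and 70.4 CPM and the negative fraction 93.7, 58.6, 73.0 and 65.1 CPM, against 85.1, 72.0, 82.7 and 93.3 CPM in EV_RIP. The ranges of all 3 groups overlapped. Its log2 fold changes were 0.06 (SE 0.17, edgeR adjusted p = 0.841) in the positive and -0.20 (SE 0.17, 0.449) in the negative fraction. A p that misses the threshold does not show that levels were equal, and the SEs of these 3 genes lay between 0.13 and 0.17.

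**Figure D3:**
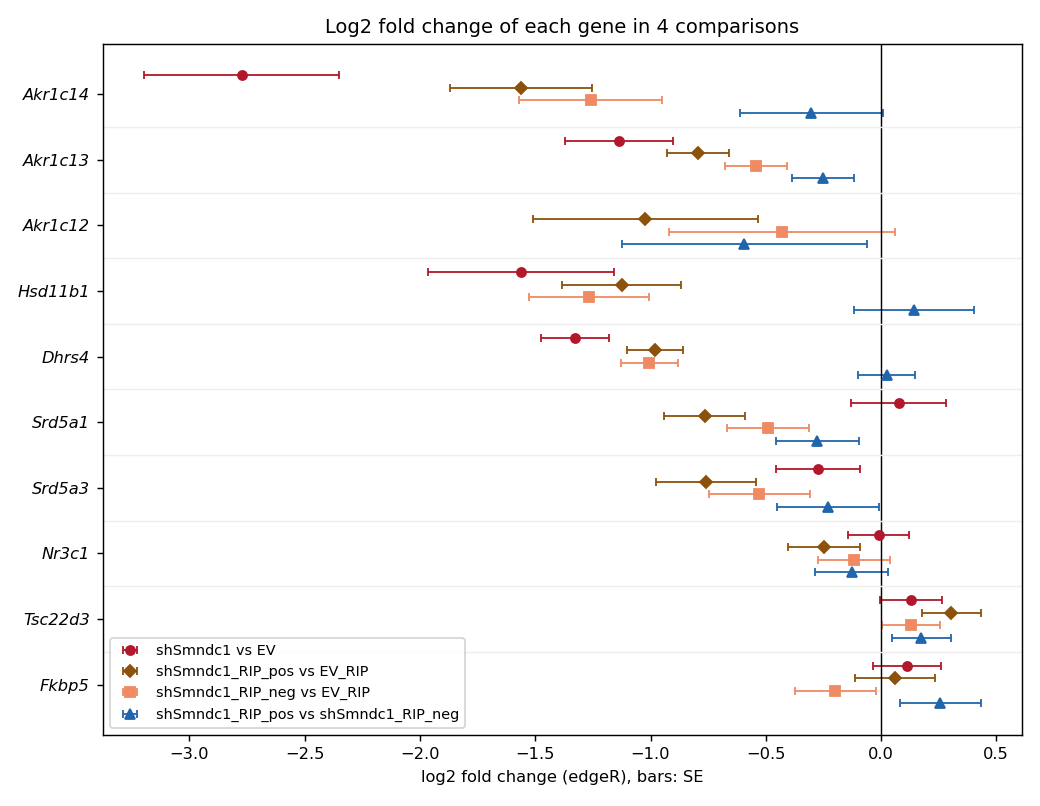
Log2 fold change (edgeR, bars are SE) of each gene in shSmndc1 against EV, the positive and the negative fraction against EV_RIP, and the positive against the negative fraction; Akr1c12 was not tested in experiment 1. The lowest value of all is that of Akr1c14 in shSmndc1, -2.77, while the Nr3c1, Tsc22d3 and Fkbp5 estimates lie between -0.25 and 0.31.

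Counted over the 7 genes that were not chosen for their fall, 1 of 6 tested was lower and 0 higher in shSmndc1 (Akr1c13), where 7.5% of all tested genes were called lower and 7.22% higher. In the positive fraction 3 of 7 were lower (Akr1c13, Srd5a1, Srd5a3) and 0 higher, against backgrounds of 8.92% and 8.47%. In the negative fraction 1 of 7 was lower (Akr1c13) and 0 higher, against 5.69% and 8.17%. Both comparisons of experiment 2 share the EV_RIP libraries, so they are not independent of each other. In the same order, every library of cells given the shRNA lay below every control in 1 of 6, 4 of 7 and 2 of 7 of these genes, where 19.8%, 11.7% and 7.2% of all tested genes did (19.7%, 11.7% and 7.24% in the other direction).

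Comparing the sorted fractions with each other asks whether cells with and without reporter signal differ in these genes, a contrast that played no part in their choice. None of the 10 genes passed in the positive against the negative fraction, nor did any of the 18897 genes tested with edgeR (0% called, 2314 at an unadjusted p under 0.05, 312 by DESeq2). The log2 fold changes were -0.30 for Akr1c14 (SE 0.31, edgeR adjusted p = 0.725; 0.17 without negative replicate 1), 0.14 for Hsd11b1 (SE 0.26, 0.86) and 0.02 for Dhrs4 (SE 0.12, 0.96). Akr1c13 had 14.1 ± 1.32 CPM in the positive and 16.7 ± 1.01 CPM in the negative fraction (SD, n = 4 each), which gave -0.25 on the log2 scale (SE 0.13, edgeR adjusted p = 0.47), and its groups did not overlap, which held for 3.25% of all genes in that direction and 3.33% in the other. Replicate numbers paired the sorted fractions, and within pairs Akr1c13, Srd5a1 and Srd5a3 were lower in the positive fraction in 4 of 4 pairs, and Fkbp5 was higher in 4 of 4. How many of all genes kept 1 direction in every pair was not counted, so these directions are a description. With the replicate block over 12 libraries 78 of 18897 genes tested were called, with none of the 10 genes among them. Over the 8 sorted libraries, a fit chosen after seeing the data, 1517 of 17994 were called. None of the 10 genes was among these either, and Akr1c12 was not tested there. Over 8 libraries Fkbp5 came nearest (log2 fold change 0.25, SE 0.09, edgeR adjusted p = 0.0916), and Akr1c13 had -0.25 (SE 0.11, 0.192). Smndc1 itself was lower in the positive fraction with the block (log2 fold change -0.87, edgeR adjusted p = 0.0346, over 12 libraries, and -0.86, 0.000954, over 8), and not without it (-0.89, 0.127), where among fits that left out 1 library it passed only without negative replicate 1 (-1.04, 0.0122).

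Whether the knockdown moved these genes differently in the 2 experiments was tested as the effect in the positive fraction minus that in shSmndc1. Among the 7 genes not chosen for their fall, the largest difference was -0.85 for Srd5a1 (SE 0.27, edgeR adjusted p = 0.998). For Akr1c14 the difference was 1.20 (SE 0.54), given with no test. None of the 20036 genes tested passed (0% called, 861 at an unadjusted p under 0.05, 5 by DESeq2). Smndc1 itself differed by 0.78 (SE 0.27, edgeR adjusted p = 0.998). A lack of calls does not show that the effects were equal, and sort and experiment cannot be told apart in this contrast. Values of the 2 experiments are given side by side.

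Levels per transcript length, from the authors' FPKM, placed Hsd11b1 first in both controls. The lengths behind the FPKM were not checked, so the order between genes rests on the authors' lengths. In EV the order was Hsd11b1 (26.4 ± 14.3), Dhrs4 (17.8 ± 1.76), Nr3c1 (16.9 ± 2.67), Akr1c13 (16.6 ± 1.55), Fkbp5 (12.4 ± 2.17), Tsc22d3 (7.53 ± 0.853), Akr1c14 (5.86 ± 1.35), Srd5a3 (4.92 ± 0.947), Srd5a1 (3.25 ± 0.716) and Akr1c12 (0.164 ± 0.0609 FPKM, SD, n = 3). Library ranges of the first 4 overlapped between neighbours, as did those from Tsc22d3 to Srd5a1. In shSmndc1 the receptor and its co-chaperone stood first, Nr3c1 at 16.6 ± 0.984 and Fkbp5 at 13.3 ± 1.23 FPKM, without overlap of the pair. Hsd11b1 (8.86 ± 4.02), Tsc22d3 (8.17 ± 0.632), Akr1c13 (7.47 ± 2.44) and Dhrs4 (7.02 ± 1.00 FPKM) followed with overlapping neighbours, and Akr1c14 stood below Srd5a1 at 0.848 ± 0.537 FPKM. Hsd11b1 led in all groups of experiment 2, at 15.1 ± 3.19 in the positive and 13.7 ± 3.79 in the negative fraction, against 32.6 ± 13.9 FPKM in EV_RIP (SD, n = 4 each), where only in EV_RIP it did not overlap the next gene.

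Other genes of the pathways were read from 6 lists (167 genes in all), chosen with earlier results of these data known and holding none of the 10 genes. Of 121 genes tested in experiment 1, 10 were higher and 10 lower in shSmndc1, where 7.22% of all genes were called higher and 7.5% lower. Among 19 genes of steroid synthesis and metabolism 1 rose and 1 fell, with a median log2 fold change of 0.04 against -0.0029 over all genes. Hsd17b7, a keto-reductase of cholesterol synthesis, fell to 25.5 ± 5.20 CPM in shSmndc1, against 75.9 ± 10.9 CPM in EV (SD, n = 3 each, log2 fold change -1.57, SE 0.17, edgeR adjusted p = 0.00443), and Hsd17b1, which makes estradiol, rose (1.42, 0.0413). Among 7 other aldo-keto reductases Akr1e1 and Akr1b7 (-1.49, 0.0316) fell. Among 18 short-chain dehydrogenases and retinoid enzymes the relatives Dhrs7 (-0.67, edgeR adjusted p = 0.0225) and Decr2 (-0.49, 0.0269) fell and the retinal reductase Dhrs3 rose (1.00, 0.0409).

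Among 21 dolichol synthesis genes 3 fell in shSmndc1, among them the mannose synthase subunit Dpm1 (log2 fold change -0.91, edgeR adjusted p = 0.0187), and 1 rose, the phosphatase Dolpp1 (0.72, 0.0158). Of 26 genes of the glucocorticoid receptor complex, the coactivators Ncoa3 (0.72, edgeR adjusted p = 0.015), Crebbp (0.69, 0.0325) and Ep300 rose and the kinase Cdk5 fell (-0.70, 0.0128). Of 30 genes known to be induced by glucocorticoid in other tissues, 4 rose and 1 fell, with a median of 0.20. The metallothioneins Mt1, at 42.8 ± 5.38 CPM in shSmndc1 against 19.3 ± 1.98 CPM in EV (1.15, edgeR adjusted p = 0.00545), and Mt2 (1.67, 0.00611) rose with Nfkbia (1.76) and Tgm2, and the transcription factor Klf9 fell to 20.9 ± 1.51 CPM, against 40.8 ± 5.70 CPM in EV (-0.97, 0.00716). These genes respond to many other signals. Over the 6 lists, 4 genes were called when EV replicate 2 was left out, 4 when EV replicate 3 was and 6 when shSmndc1 replicate 2 was, against 20 with all libraries.

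In the positive fraction 13 of the 122 list genes tested rose and 21 fell, where 8.47% of all genes were called higher and 8.92% lower. Of 19 steroid genes 5 fell and 0 rose (median -0.17, against 0.0011 over all genes), among them Hsd17b7 at 27.1 ± 5.75 CPM, against 51.2 ± 11.0 CPM in EV_RIP (SD, n = 4 each, log2 fold change -0.91, edgeR adjusted p = 0.00447), the oxysterol hydroxylase Cyp7b1 (-0.83, 0.0293) and the peroxisomal Hsd17b4 (-0.49, 0.029). Of 7 aldo-keto reductases 3 fell, Akr1b7 (-1.11, edgeR adjusted p = 0.0123), Akr1e1 and the aldehyde reductase Akr1a1 (-0.33, 0.0411). Of 18 short-chain dehydrogenases and retinoid enzymes 4 fell, among them Dhrs7 (-0.59, 0.00807) and the retinol dehydrogenase Rdh14 (-0.60, 0.00953), and Dhrs3 rose. Of 21 dolichol genes 4 fell, among them the mannosyltransferase Alg2 (-0.56, edgeR adjusted p = 0.00538) and Alg5 (-0.43, 0.0153), and Dolpp1 rose (0.42, 0.0201).

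In the same cells 5 of 26 receptor complex genes rose, among them Ncoa3 (log2 fold change 0.83, edgeR adjusted p = 0.00133), and 3 fell, Cdk5 (-0.62, 0.0157), the co-chaperone Fkbp4 and Hspa8. Of 31 glucocorticoid-induced genes 6 rose and 2 fell (median 0.14): Zfp36, which promotes mRNA decay, had 26.9 ± 8.20 CPM in the positive fraction, against 6.73 ± 1.28 CPM in EV_RIP (SD, n = 4 each, 2.00, edgeR adjusted p = 0.00133), and Mt2 (1.92), Mt1 (1.56), Nfkbia (1.32), the clock gene Per1 (0.62) and Il6ra rose too, while Klf9 and Rgs2 fell. Called list genes numbered 34 in all, against 14 without EV_RIP replicate 1, 19 without EV_RIP replicate 3, and 11, 18 and 19 without positive replicates 2, 3 and 4.

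In the negative fraction 15 of 122 list genes rose and 11 fell, where 8.17% of all genes were called higher and 5.69% lower. Of 19 steroid genes Hsd17b1 alone was called, at 2.06 ± 0.593 CPM, against 0.883 ± 0.183 CPM in EV_RIP (SD, n = 4 each, log2 fold change 1.20, edgeR adjusted p = 0.0175). Akr1e1, Akr1b8 (-0.56, edgeR adjusted p = 0.0413) and Akr1a1 (-0.34, 0.0435) fell of 7 aldo-keto reductases, for a median of -0.56 against -0.0090 over all genes. Dhrs1 (-0.78, 0.0265), Dhrs7 (-0.44, 0.0316) and Decr2 fell of 18 short-chain dehydrogenases and retinoid enzymes, and the retinol dehydrogenase Rdh5 rose (1.16, 0.0399). Of 21 dolichol genes 3 fell, among them Alg14 (-0.86, 0.0157). Of 26 receptor complex genes 5 rose, among them Crebbp (0.76, edgeR adjusted p = 0.017) and Ep300 (0.73, 0.0164), and Cdk5 (-0.70, 0.0151) and Bag1 fell. Of 31 glucocorticoid-induced genes 8 rose and 0 fell (median 0.25), Mt2 (2.65, edgeR adjusted p = 0.0012) and Zfp36 (1.75, 0.00737) foremost, and with 1 library left out between 2 and 19 genes of this list were called.

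Against 26 called list genes in the negative fraction, 5 were called without EV_RIP replicate 1, 12 without EV_RIP replicate 3, and 55, 5, 13 and 2 without negative replicates 1, 2, 3 and 4. Without negative replicates 3 and 4 together, which hold most Rn7sk, 1 list gene was called. Genes of the set of 10 that were not chosen for their fall gave no call there. In the positive against the negative fraction 0 list genes were called, with 15 in the fit with the replicate block over 8 libraries and 10 without negative replicate 1. Reads of some named genes overlap other genes: 73.5% of the exonic bases of Mt2 and 27.2% of those of Akr1b7 lie opposite exons of another gene, and 25.6% of those of Rdh5 overlap exons on their own strand, as do a smaller share of those of Dpm1. Since the strand setting of the counting is not given in the sources used here, the values of Mt2, Akr1b7 and Tgm2 are uncertain. Those of Rdh5 and Dpm1 are uncertain with any strand setting.

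**Figure D4:**
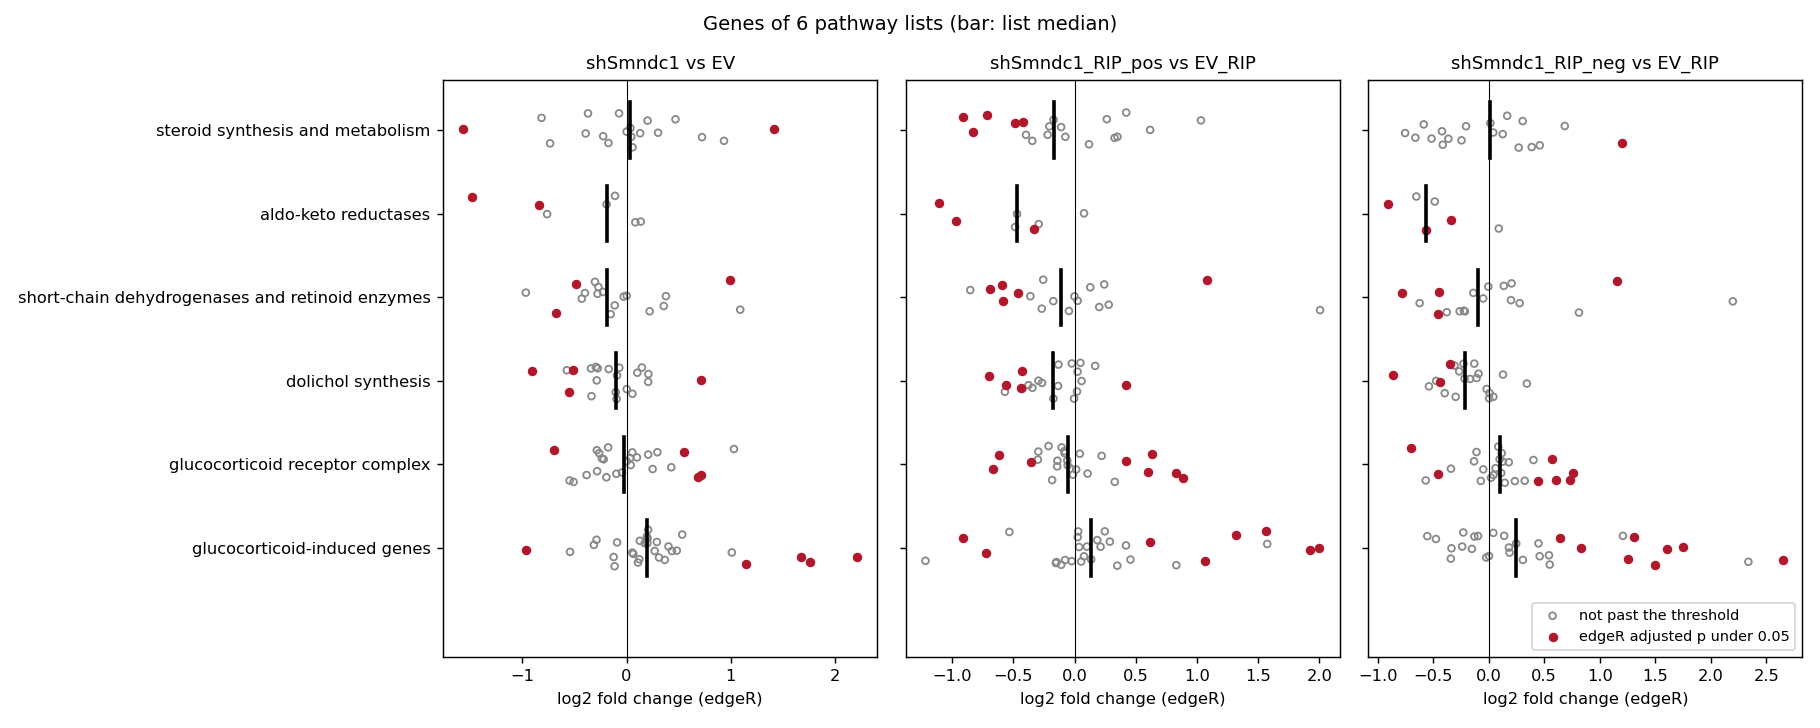
Log2 fold change (edgeR) of every tested gene in 6 pathway lists in shSmndc1 against EV, the positive fraction against EV_RIP and the negative fraction against EV_RIP; filled points passed an adjusted p under 0.05 and black bars are list medians. Aldo-keto reductases have the lowest medians (-0.19 in shSmndc1, -0.47 in the positive and -0.56 in the negative fraction, alongside short-chain dehydrogenases at -0.19 in experiment 1), and called genes of the glucocorticoid-induced list lie mostly to the right of 0.

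Liver and steroid-producing cells also express such enzymes, so their markers were read in the same libraries. The 7 hepatocyte markers summed to 2.66 to 3.49 CPM in shSmndc1, against 4.08 to 13.3 CPM in EV, and to 2.64 to 6.21 CPM in the positive and 2.50 to 4.45 CPM in the negative fraction, against 5.99 to 9.34 CPM in EV_RIP. All 7 had counts in shSmndc1 and 6 in the other groups, where Cyp3a11 was at 0. Serpina1a carried most of the sum, and albumin (Alb) averaged under 1 CPM in every group. Of 8 adrenal and gonadal markers, Star gave nearly the whole sum (11.4 ± 1.52 CPM in shSmndc1 against 11.1 ± 1.37 CPM in EV; 11.6 ± 3.40 CPM in the positive and 11.9 ± 1.95 CPM in the negative fraction against 9.08 ± 1.71 CPM in EV_RIP), with Cyp11b1 and Mc2r at 0 in both groups of experiment 1 and in EV_RIP. The part of these markers in the results was not tested.

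Genes with the most similar pattern were sought by the distance between group means of log2 CPM, centred on each experiment's control, over the 3 groups given the shRNA and among 11243 genes with a mean of at least 5 CPM in both controls. Nearest to Akr1c14 were Nptx1 (distance 0.58, in log2 units), Wdr83os (0.60) and Gys2 (0.72). Hsbp1l1 (0.10), Serpina9 (0.14) and Amdhd1 (0.16) were nearest to Hsd11b1. Pcyt1b (0.08), the prolactin receptor Prlr (0.09) and the predicted gene Gm48558 (0.10) were nearest to Dhrs4. Akr1c14 had no neighbour as near as the other 2 genes had, at -2.71, -1.52 and -1.42 in shSmndc1, the positive and the negative fraction on this scale, against -2.37, -1.99 and -1.33 for Nptx1. The search used the values by which these 3 genes were chosen. Distances were not scaled for the size of a fold change or the spread between libraries, so they are a description.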

How the data were processed

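Per the labels' protocols, DNase-treated RNA went into stranded mRNA libraries that were sequenced as paired 75-base reads. The authors deposited raw read counts per gene and FPKM for each of the 18 libraries. STAR 2.7.5a, Picard 2.19.2, DESeq2 1.30.0 and build GRCm38 (mm10) are named in the submitters' processing notes. How reads were counted, and on which strand, is not given in the sources used here. Within each gene, the deposited FPKM were proportional across libraries to counts divided by median-of-ratios size factors. This held in 21364 and 18662 genes checked, with a largest relative deviation of 4.7e-14 and 5e-14. The gene lengths behind the FPKM were not checked. FPKM were used for levels between genes and the counts for all tests.

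Counts were tested with edgeR 4.0.16 in R 4.3.3 (filterByExpr with a minimum count of 10, TMM scaling, quasi-likelihood F test, Benjamini-Hochberg adjustment over all genes tested, threshold 0.05). Experiment 1 was fitted on its own and the 3 groups of experiment 2 together. The SE is the log2 fold change divided by the square root of F. Alternatives used DESeq2 1.42.0, its size factors, other filters, fewer libraries and the replicate number as a block. The fits were tested on simulated counts. Promoter windows are RefSeq's, matched by symbol for 9 of 10 genes, aligned with Biopython 1.88, and 54821 of 55487 genes had identical coordinates in GENCODE M21. Limits for a count of 0 use 3 counts and cover counting error only.

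Replicate numbers were taken to pair libraries where every pair's deviations from the group means correlated above 0.1. This held for the positive and the negative fraction (0.697, 0.431, 0.201 and 0.418 for replicates 1 to 4), where the same numbers come from the labels, and for no other pair of groups.

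The 10 genes, the pathway and marker lists and the tests were chosen with earlier results of these data known. Named genes are the 10, Smndc1, up to 3 genes of each list with the smallest p among those called in a comparison, and the 3 nearest patterns of Akr1c14, Hsd11b1 and Dhrs4. Other called list genes and H6pd were named after their values were seen. The level of 1 alpha cell marker is not reported here.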

Additional observations from a re-analysis of the deposited data

Results flagged for a closer look

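Among the 30 groups of 4 libraries formed by the 10 genes, 2 held a library far from the other 3 by Dixon's criterion, which chance gives in about 1 of 20 groups. Hsd11b1 had 101.6 CPM in EV_RIP replicate 4, where the other EV_RIP libraries lay between 45.96 and 51.79 CPM. The same library had the highest Nr3c1 value of its group, 109.5 CPM. Nr3c1 had 87.0 CPM in positive replicate 1, where the other positive libraries lay between 61.1 and 63.5 CPM. The cause of either value was not tested.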

How the results depend on the processing

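No called change turned its direction. Akr1c14, Hsd11b1 and Dhrs4 had no threshold against the controls or in the difference of effects. There they counted as kept where the direction held and the change was under the SD between libraries. Outside the settings that leave out 1 library, 282 log2 fold changes of the 10 genes were kept, in direction and, where tested, side of the threshold. Of the others, 4 gained a call, 1 lost it and 2 that were not called changed sign. These 2 were Nr3c1 in shSmndc1 with a minimum of 1 CPM (0.0018) and Dhrs4 in the positive against the negative fraction without negative replicates 3 and 4 (-0.035). The 4 gains were, in the negative fraction, Srd5a1 by DESeq2 (-0.47, adjusted p = 0.0468) and, with the replicate block, Srd5a1 (-0.49, edgeR adjusted p = 0.0429) and Srd5a3 (-0.56, 0.0199), and in the positive fraction Tsc22d3 with the block (0.31, 0.0469). With 1 library left out, 403 were kept in the same sense, 2 gained a call, 10 lost it and 1 with no test moved (Akr1c14, difference of effects, 0.82 to 1.75). A further 18 that were not called or had no test changed sign. Their ranges were -0.072 to 0.24 for Srd5a1, -0.094 to 0.12 for Nr3c1 and -0.0079 to 0.24 for Fkbp5 in shSmndc1, -0.098 to 0.17 for Fkbp5 in the positive and -0.21 to 0.053 for Nr3c1 in the negative fraction. In the positive against the negative fraction they were -0.52 to 0.17 for Akr1c14, -0.0021 to 0.28 for Hsd11b1 and -0.042 to 0.15 for Dhrs4, and in the difference of effects -0.22 to 0.70 for Akr1c12, -0.10 to 0.84 for Hsd11b1 and -0.22 to 0.043 for Fkbp5. Of the 7 genes, those called in the negative fraction numbered 2 by DESeq2, 3 with the replicate block and 0 without negative replicates 3 and 4, against 1, and between 0 and 3 with 1 library left out; in shSmndc1 this range was 0 to 1, against 1. Over all genes, shSmndc1 against EV gave 2681 calls, 4165 without a filter, 4070 by DESeq2, 2813 with the replicate block and 181 to 3336 with 1 library left out (550, 181 and 627 when EV replicate 2, EV replicate 3 or shSmndc1 replicate 2 was left out). The positive fraction gave 3286, 5079 with the replicate block and 1258 to 3586 with 1 library left out. The negative fraction gave 2620, 4597 with the replicate block, 1289 with only the 2 groups in the fit and 4 without replicates 3 and 4; leaving out 1 library gave 159 to 5831 (539 and 1122 without EV_RIP replicates 1 and 3, and 5831, 392, 1094 and 159 without negative replicates 1 to 4). The positive against the negative fraction gave 0, 150 without a filter, 312 by DESeq2, 78 with the replicate block, 1517 with the block over 8 libraries and 0 to 517 with 1 library left out. The difference of effects gave 0, 5 without a filter, 5 by DESeq2 and 1 with the replicate block. By the rule that every pair correlates above 0.1, replicate numbers did not pair EV with shSmndc1 (correlations -0.028, -0.017 and 0.297) or EV_RIP with either sorted group. For EV_RIP replicates 1 to 4 the correlations were 0.283, 0.571, -0.216 and -0.325 with the negative fraction. With the positive fraction they were 0.239, 0.491, -0.0423 and -0.0555. Some numbers thus shared deviations and others did not, and the block rested there on a shared number only. Fits with fewer libraries gave fewer calls in many cases and more in others, such as 5831 against 2620 without negative replicate 1. The part of the number of libraries in this was not tested. Counts limit Akr1c12 most, and negative replicate 3 has the lowest total, 8084574 counts. All alternatives listed were run.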

Other observations

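Markers of other cell types were read in the same fits. Of 10 beta cell markers, Ins2 and Mafa rose and Slc30a8 fell in shSmndc1 (edgeR adjusted p under 0.05). In the positive fraction Ins1, Ins2, Iapp and Mafa rose and Slc30a8 fell, and in the negative fraction Slc30a8 and G6pc2 fell. Of the 10 markers 6 were tested in shSmndc1 and 7 in each fraction. The positive fraction was sorted on an insulin promoter reporter, so for insulin genes sort and knockdown cannot be told apart there. Ins1 averaged 0.938 CPM in the positive fraction against 0.0292 CPM in EV_RIP, Iapp 0.917 against 0.189 CPM and Ins2 10.06 against 1.743 CPM. Cel and Spp1, of the acinar and duct list, rose in shSmndc1 and Spp1 in the positive fraction. Esam, an endothelial adhesion gene, rose in shSmndc1 and in both sorted fractions, with Pecam1 in the negative fraction. Csf1r rose in shSmndc1 and Cd68 in the negative fraction, of the leukocyte list. Col1a1, of the fibroblast list, rose in the positive and the negative fraction, and Ghrl, of the delta and PP list, in the negative fraction. Alb and Serpina1a, of the hepatocyte list, fell in shSmndc1, Alb in the positive and Serpina1a in the negative fraction. No marker of adrenal and gonadal steroid cells was called. The part of these cell types in the levels of the steroid enzymes was not tested.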
